A study of Mus musculus with 24 samples.

Results

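Glucocorticoid-responsive genes are described here across skin, sensory ganglia and spinal cord of mice injected in the hind paw. The set holds 9 genes, Fkbp5, Tsc22d3, Sgk1, Zbtb16, Ddit4, Ddit4l, Fbxo32, Pdk4 and Cdkn1a, chosen by symbol as targets of the stress hormone receptor. They are 9 of the 22609 gene symbols in the files, and all 9 passed the filter on low counts in every tissue, among 15287 genes in paw, 15461 in dorsal root ganglion (DRG) and 15096 in cord. The question was whether these genes moved with treatment, library by library.

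RNA-seq covered punch biopsies of hind paw skin, DRG of levels L3-L5 and the lumbar cord, all from male mice of strain C57 aged 8-12 weeks, with 24 libraries in 8 groups of 3. The treatment was an agonist antibody to the lymphotoxin-beta receptor (LTβR), which belongs to the tumour necrosis factor receptors and shapes lymphoid tissue, given into the hind paw at 10 μg per injection. Day-1 groups were taken a day after a first injection, and day-6 groups had 2 injections. By the titles of the samples, the 6 days start at the first injection, whereas the series design can be read as counting from both. Paw and DRG controls received IgG at 10 μg and were taken a day after it, and the titles do not say how many IgG injections they had. No IgG group of spinal cord was analysed here, so the cord allows only day 6 against day 1, and no IgG group of the later day was analysed in paw or DRG. The labels do not say whether same-numbered libraries come from 1 animal or whether replicates are different animals. A p-value here therefore reflects only how far these samples scatter, which may be technical.

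Glucocorticoids such as corticosterone, the main one in mice, enter cells and bind the glucocorticoid receptor, which is held in the cytoplasm by chaperones. The bound receptor moves to the nucleus and acts at palindromic DNA elements near its target genes. Circulating corticosterone follows a daily rhythm and rises with handling and stress, and skin, ganglia and cord all carry the receptor. Some of the 9 genes also respond to other signals, such as p53 for Cdkn1a, fasting for Pdk4 and FoxO factors for Fbxo32.

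Start-site sequences of 4 genes whose levels varied together in DRG (Fkbp5, Tsc22d3, Sgk1 and Ddit4), and of Cdkn1a, are shown because the palindromic element and the p53-type element are where the glucocorticoid receptor and p53 are known to act. RefSeq windows from 250 bases before to 50 after a start site, build GRCm38.p6, were found for 7 of the 9 genes, as 15 windows. The full palindrome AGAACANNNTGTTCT (both strands) was in 3 of 32851 such windows of all genes, 0.00913%, and 1 of these 3 was a window of Sgk1. Its shorter arm AGAACA (both strands, and contained in the palindrome) was in 19.0% of all windows, and among the 15 it was in 1 window of Tsc22d3 and 3 of Sgk1. The pattern CATGNNNNNNCATG, the core of a p53-type element, was in 0.712% of all windows and in 1 window of Cdkn1a. For Sgk1, 1 of 6 windows is printed, and for Tsc22d3 1 of 3, in each case chosen because it holds a motif. The windows are chr17:28486100-28486399 (minus strand) for Fkbp5, chr10:21993640-21993939 (plus strand) for Sgk1, chrX:140600473-140600772 (minus strand) for Tsc22d3, chr10:59951721-59952020 (minus strand) for Ddit4 and chr17:29090729-29091028 (plus strand) for Cdkn1a. Capitals mark the palindrome in Sgk1, the arm in Tsc22d3 (read on the other strand) and the p53-type pattern in Cdkn1a; the windows of Fkbp5 and Ddit4 held none of them.
Fkbp5: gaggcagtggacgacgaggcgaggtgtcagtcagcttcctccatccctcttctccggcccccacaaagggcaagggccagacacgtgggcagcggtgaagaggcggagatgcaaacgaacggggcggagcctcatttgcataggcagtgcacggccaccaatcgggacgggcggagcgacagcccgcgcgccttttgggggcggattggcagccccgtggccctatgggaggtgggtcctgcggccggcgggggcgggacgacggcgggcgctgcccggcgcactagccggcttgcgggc
Sgk1: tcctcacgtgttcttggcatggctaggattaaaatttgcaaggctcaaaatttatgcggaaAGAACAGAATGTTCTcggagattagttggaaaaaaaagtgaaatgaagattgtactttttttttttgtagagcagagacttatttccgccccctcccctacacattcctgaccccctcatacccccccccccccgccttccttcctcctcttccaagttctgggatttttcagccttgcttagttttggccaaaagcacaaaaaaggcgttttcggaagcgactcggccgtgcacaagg
Tsc22d3: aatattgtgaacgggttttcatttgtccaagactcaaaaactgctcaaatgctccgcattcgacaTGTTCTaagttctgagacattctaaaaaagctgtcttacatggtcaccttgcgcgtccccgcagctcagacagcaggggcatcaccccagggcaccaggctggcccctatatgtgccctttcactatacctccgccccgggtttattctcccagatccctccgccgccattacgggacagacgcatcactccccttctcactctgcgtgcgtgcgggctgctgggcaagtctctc
Ddit4: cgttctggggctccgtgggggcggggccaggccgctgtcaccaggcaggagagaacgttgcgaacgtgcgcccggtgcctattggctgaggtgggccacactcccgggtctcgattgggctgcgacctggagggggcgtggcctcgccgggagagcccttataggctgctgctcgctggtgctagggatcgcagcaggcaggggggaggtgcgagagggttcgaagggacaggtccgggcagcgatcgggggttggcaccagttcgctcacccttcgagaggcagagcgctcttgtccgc
Cdkn1a: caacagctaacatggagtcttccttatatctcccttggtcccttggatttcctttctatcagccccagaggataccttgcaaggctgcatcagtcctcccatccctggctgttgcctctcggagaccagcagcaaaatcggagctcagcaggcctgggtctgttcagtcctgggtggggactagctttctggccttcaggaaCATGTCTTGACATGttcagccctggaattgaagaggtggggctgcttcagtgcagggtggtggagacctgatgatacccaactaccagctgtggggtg
A match describes these letters only.

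Depth, in units of 1e6 reads assigned to genes, ran from 15.7 to 41.0 per library, and no pair of libraries within a group held identical counts. Levels are CPM, counts per 1e6 reads in genes, after TMM scaling within a tissue, and changes are log2 fold changes ± standard error from edgeR's quasi-likelihood test, with p adjusted by Benjamini-Hochberg over all genes tested and a threshold of 0.05. CPM compare a gene between libraries, not genes with each other. Keratinocyte markers were led in paw by Krt10 at a mean of 35710 CPM, neuron markers in DRG by Nefl at 4848 CPM, and in cord all 10 neuron and all 8 astrocyte markers averaged at least 1 CPM. Skeletal muscle RNA differed widely between libraries: 15 markers summed to 223 CPM in paw IgG library 1 and to between 5312 and 38200 CPM in the rest of the paw libraries, and the sum ran from 39.1 to 6798 CPM in DRG. In bulk tissue, fewer cells of a type and less RNA per cell cannot be told apart.

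No gene of the 9 changed past the threshold in any of the 7 comparisons within a tissue. In paw the share of all genes called was 0.00654% at day 1 against IgG, 0.706% at day 6 against IgG and 1.03% at day 6 against day 1. In DRG it was 0.168% at day 1, 0% at day 6, and 0.103% at day 6 against day 1, and in cord it was 0% at day 6 against day 1. A count of 0 among 9 is a share near these backgrounds. Unadjusted p under 0.05 was reached by 1 of the 9 at paw day 6 against day 1, 1 at DRG day 1, 1 at DRG day 6 against day 1 and 4 in cord, and by none in the other 3. Standard errors ranged from 0.10 for Cdkn1a in DRG to 1.05 for Ddit4l in paw, so changes of Ddit4l in paw were the least well resolved. The median change of the 9 genes was 0.12 at paw day 1, -0.27 at paw day 6, -0.24 at paw day 6 against day 1, -0.34 at DRG day 1, -0.27 at DRG day 6, 0.10 at DRG day 6 against day 1 and -0.36 in cord. The medians of all genes tested lay between -0.01 and 0.01 in these comparisons.

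**Figure D1:**
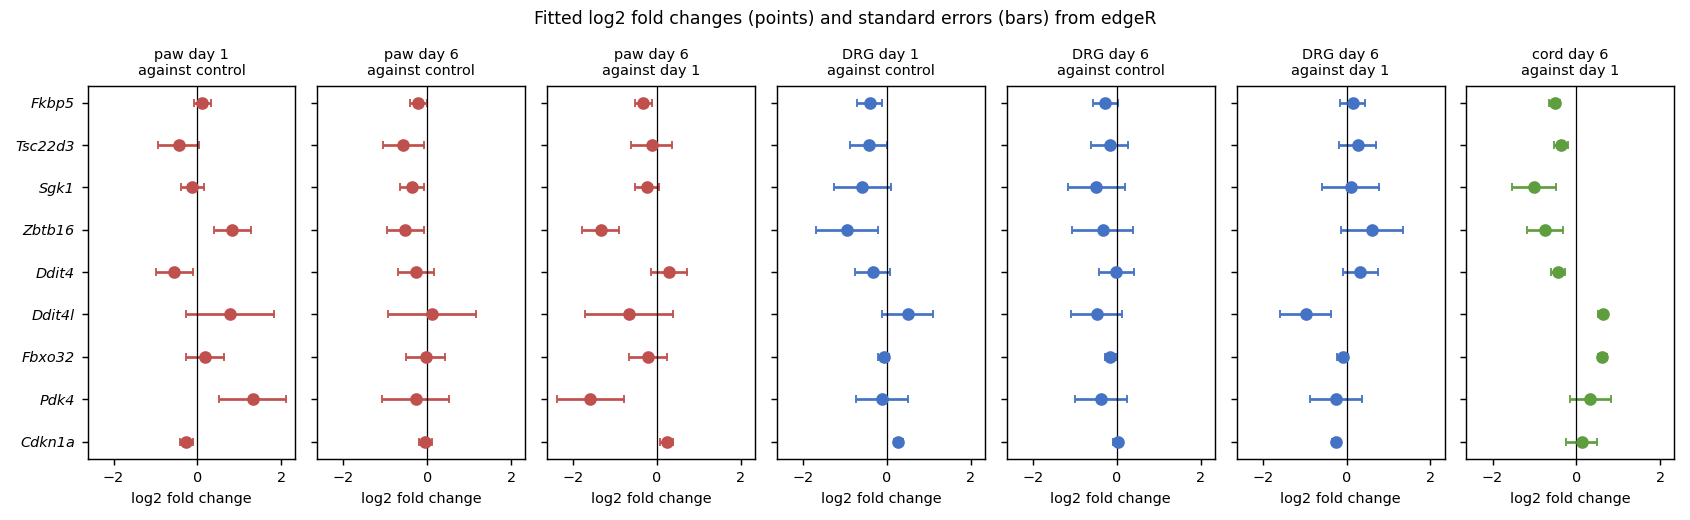
Log2 fold change (x axis) of each of the 9 genes (y axis) in the 7 within-tissue comparisons, as points with standard error bars, from edgeR. None passed the adjusted threshold; the bars are narrowest for Cdkn1a in DRG (0.10) and widest for Ddit4l in paw (1.05).

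Fkbp5 encodes a co-chaperone that lowers the receptor's affinity for hormone and is itself induced by it. In DRG it was at 69.7, 73.7 and 123 CPM in IgG libraries 1, 2 and 3, at 59.2, 58.2 and 83.1 CPM at day 1, and at 63.2, 61.8 and 96.1 CPM at day 6. Library 3 was the highest of each group, and the groups overlapped. The change was -0.41 ± 0.30 at day 1 (adjusted p = 0.859) and -0.27 ± 0.30 at day 6 (adjusted p = 0.995). In paw Fkbp5 was at 52.3, 66.4 and 40.5 CPM in IgG, 68.8, 56.6 and 47.1 CPM at day 1 and 49.6, 48.0 and 40.0 CPM at day 6, and there library 3 was the lowest of each group. In cord it was at 49.5, 55.2 and 51.8 CPM at day 1 and 28.9, 41.7 and 38.3 CPM at day 6. Every day-6 cord library lay below every day-1 library, a change of -0.52 ± 0.13 with unadjusted p = 0.00425 and adjusted p = 0.463.

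Tsc22d3 encodes GILZ, a leucine-zipper protein that carries part of the anti-inflammatory action of glucocorticoids. Its DRG values were 192, 281 and 392 CPM in IgG libraries 1, 2 and 3, 156, 193 and 294 CPM at day 1, and 151, 242 and 378 CPM at day 6. Library 1 was lowest and library 3 highest in each group, and the spread inside a group was larger than the day-1 change of -0.43 ± 0.44 (adjusted p = 0.927). In paw the values were 84.2, 214 and 397 CPM in IgG, 147, 169 and 196 CPM at day 1, and 127, 137 and 203 CPM at day 6. The same libraries were lowest and highest in all 3 paw groups, and both agonist groups lay inside the range of the IgG group. At paw day 6 the change was -0.57 ± 0.49 (adjusted p = 0.823), and without paw IgG library 3 it was 0.06. In cord the day-6 values of 192, 284 and 317 CPM all lay below the day-1 values of 326, 353 and 341 CPM (-0.36 ± 0.17, adjusted p = 0.532).

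Sgk1 encodes a kinase that raises sodium channel and transporter activity and is induced through both corticosteroid receptors. DRG libraries gave 51.9, 113 and 212 CPM in IgG libraries 1, 2 and 3, 51.0, 79.0 and 122 CPM at day 1, and 41.7, 81.5 and 147 CPM at day 6. Library 3 was 4.10-fold above library 1 in IgG, 2.39-fold at day 1 and 3.52-fold at day 6, while the fitted change at day 1 was -0.58 ± 0.68 (adjusted p = 0.942). In paw the IgG libraries were close together, at 249, 269 and 249 CPM, where day 1 gave 174, 233 and 298 CPM and day 6 gave 117, 221 and 258 CPM. Library 1 was lowest and library 3 highest in both agonist groups of paw. In cord the day-1 libraries differed by only 1.02-fold, at 463, 473 and 468 CPM, and day 6 gave 85.4, 272 and 340 CPM. All day-6 libraries were lower, with 1 far below the other 2 (-1.01 ± 0.52, adjusted p = 0.565).

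Zbtb16 encodes PLZF, a zinc-finger transcription repressor strongly induced by glucocorticoids in many tissues. In paw it was at 17.8, 46.0 and 25.9 CPM in IgG, 77.0, 55.2 and 26.9 CPM at day 1, and 25.4, 18.8 and 18.3 CPM at day 6. Every day-6 library was below every day-1 library, though the highest day-6 and lowest day-1 values nearly met. Of all genes tested in paw, 6.93% had a smaller p, and the share of all genes separated in this way was not counted. The change between the days was -1.35 ± 0.45 (unadjusted p = 0.0168, adjusted p = 0.242), and DESeq2 gave -1.35 with adjusted p = 0.0221. In DRG it was low, at 2.73 to 16.5 CPM, and library 3 was the highest in IgG (15.2 CPM) and at day 6 (16.5 CPM) but not at day 1 (5.34 CPM). In cord 1 day-6 library at 19.6 CPM lay inside the day-1 range of 14.8 to 25.3 CPM, and the other 2 were at 8.42 and 7.32 CPM.

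Ddit4 encodes REDD1, which restrains the growth kinase mTORC1 and is induced by glucocorticoids, hypoxia and energy stress. Its level in DRG was 96.1, 121 and 177 CPM in IgG libraries 1, 2 and 3, 69.2, 97.8 and 145 CPM at day 1, and 78.6, 131 and 181 CPM at day 6. As with Tsc22d3 and Sgk1, library 1 was lowest and library 3 highest in every group (day 1, -0.34 ± 0.42, adjusted p = 0.946; day 6, -0.01 ± 0.42, adjusted p = 0.996). In paw library 3 was the highest of each group, at 133, 86.7 and 96.7 CPM for IgG, day 1 and day 6, and the other 6 libraries were at 35.6 to 72.6 CPM. In cord the day-6 values of 69.0, 96.0 and 116 CPM lay below the day-1 values of 124, 131 and 126 CPM. That change was -0.44 ± 0.17, with unadjusted p = 0.0431 and adjusted p = 0.504.

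Ddit4l encodes REDD2, a relative of REDD1 that is abundant in skeletal muscle. In paw it was at 2.21, 68.1 and 60.5 CPM in IgG, 83.2, 102 and 40.0 CPM at day 1 and 82.1, 18.7 and 40.2 CPM at day 6. The lowest value was in the library with the least muscle RNA, where Acta1, skeletal actin, was at 31.1 CPM. The other 8 paw libraries had 778 to 8054 CPM of Acta1. In DRG day-1 library 1 had the highest Ddit4l (14.6 CPM) and the highest Acta1 (1273 CPM), and the other 8 DRG libraries had Ddit4l at 2.72 to 6.95 CPM. The muscle markers summed to 6798 CPM in that library. They summed to 5128 and 5641 CPM in IgG libraries 2 and 3, where Ddit4l was at 5.86 and 6.95 CPM. In IgG library 1, day-1 libraries 2 and 3 and all day-6 libraries the sums were 39.1 to 550 CPM. Ddit4l there was at 2.72 to 3.85 CPM. The part of muscle RNA in these values was not tested beyond a fit with a muscle score, in which no gene of the 9 was called. In cord Ddit4l was at 20.3, 17.8 and 16.0 CPM at day 1 and 30.2, 26.7 and 26.6 CPM at day 6. All day-6 libraries were higher (0.63 ± 0.11, 1.54-fold), with unadjusted p = 0.000396 and adjusted p = 0.463.

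Fbxo32 encodes atrogin-1, a ubiquitin ligase subunit of muscle wasting, and Pdk4 a kinase that shuts off pyruvate oxidation in fasting. Fbxo32 in cord was at 32.0, 28.9 and 27.4 CPM at day 1 and 40.7, 42.8 and 52.5 CPM at day 6. All day-6 libraries were higher (0.62 ± 0.11, 1.54-fold), with unadjusted p = 0.000509 and adjusted p = 0.463. In DRG its values ran only from 16.9 to 25.3 CPM, and in paw from 35.0 CPM, in the muscle-poor IgG library, to 134 CPM. Pdk4 in paw was at 6.16, 44.7 and 38.3 CPM in IgG, 116, 68.9 and 36.4 CPM at day 1, and 42.2, 18.7 and 12.5 CPM at day 6, so each agonist group overlapped IgG. Its paw changes were 1.31 ± 0.80 at day 1 (adjusted p = 0.555) and -1.59 ± 0.80 from day 1 to day 6 (adjusted p = 0.424). The highest Pdk4 value in cord, 50.3 CPM, was in day-6 library 3, which also had the most Acta1 of the cord libraries, 313 CPM against 23.9 to 83.2 CPM.

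Cdkn1a encodes p21, an inhibitor of cyclin-dependent kinases and a target of both p53 and the glucocorticoid receptor. In DRG it was at 219, 244 and 246 CPM in IgG, 265, 313 and 279 CPM at day 1, and 201, 253 and 265 CPM at day 6. All day-1 libraries were above all IgG libraries, a 1.21-fold difference (0.27 ± 0.10, unadjusted p = 0.0242) that did not pass the threshold (adjusted p = 0.587). Of all genes tested in DRG, 4.12% had a smaller p, and the share of all genes separated in this way was not counted. In DRG Zbtb16 at day 1 (adjusted p = 0.883) and Fbxo32 at day 6 (adjusted p = 0.995) lay below IgG in every library, but the groups nearly met. The highest day-1 value of Zbtb16 was 6.096 CPM and its lowest IgG value 6.106 CPM. For Fbxo32 the highest day-6 value was 19.83 CPM and the lowest IgG value 19.95 CPM. The share of all genes separated in these comparisons was not counted either. Adipocyte markers summed to 10.3 to 24.2 CPM in the DRG IgG libraries, 33.2 to 121 CPM at day 1 and 32.7 to 70.2 CPM at day 6. Their part in the DRG values of Cdkn1a was not tested. In paw Cdkn1a stayed between 263 and 417 CPM in all 9 libraries, and in cord between 44.3 and 109 CPM.

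**Figure D2:**
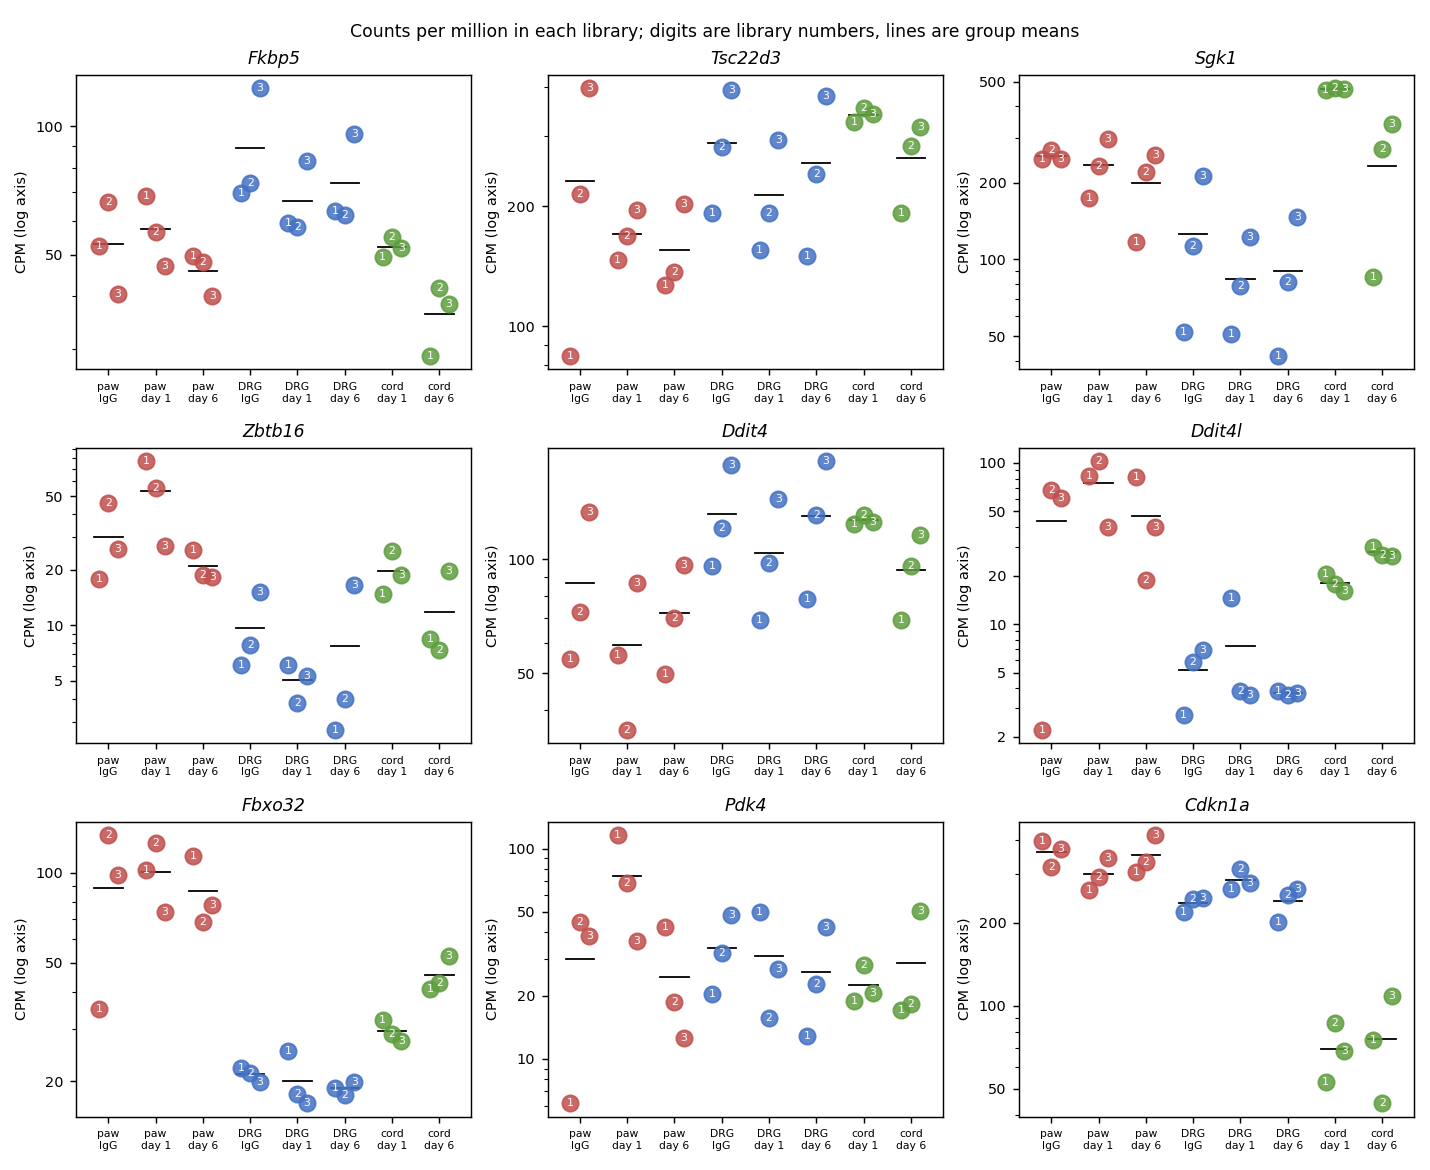
CPM (y axis, log scale) of each of the 9 genes in all 24 libraries, by tissue and group (x axis); the digit in each point is the library number and black lines are group means. Sgk1 in cord lies at 463 to 473 CPM at day 1 and at 85.4 to 340 CPM at day 6, and in DRG its library numbers 1, 2 and 3 stack in the same order in each group.

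In DRG the libraries of a group were therefore ranked by number for part of the set. Library 1 was lowest and library 3 highest in all 3 groups for 3 of the 9 genes, Tsc22d3, Sgk1 and Ddit4, and for 0.679% of all genes tested in DRG. In paw this held for 1 of the 9, Tsc22d3, and for 0.595% of all genes tested there. The ranking was looked for after its values were seen, and the number has no meaning in the labels beyond naming a replicate, so no test is attached. Of the 21 other glucocorticoid targets listed, 4 had the DRG ranking: Per1, Klf15, Mt2 and Errfi1. Per1, a clock gene with a glucocorticoid response of its own, was at 63.7, 119 and 159 CPM in IgG, 34.7, 64.1 and 118 CPM at day 1 and 35.9, 101 and 143 CPM at day 6. Per2 and Cry2, also clock genes, had the same ranking. None of the skeletal muscle, meningeal, myelin, astrocyte, neuron, endothelial, adipocyte, keratinocyte and leukocyte markers did. With 7 to 15 markers tested per list and a share of 0.679% of all genes, that absence is near the background. It does not set the markers apart from other genes. Among the 86 DRG genes with this ranking and a mean of at least 5 CPM, those with the widest separation in all 3 groups were led by Sgk1, Mt2, Per1 and Klf15. Of reads counted as in genes, outside them or ambiguous, 31.5% lay outside genes in DRG IgG library 1. The other 8 DRG libraries had 13.1% to 13.8%, with the day-1 and day-6 libraries numbered 1 at 13.1% and 13.2%.

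**Figure D3:**
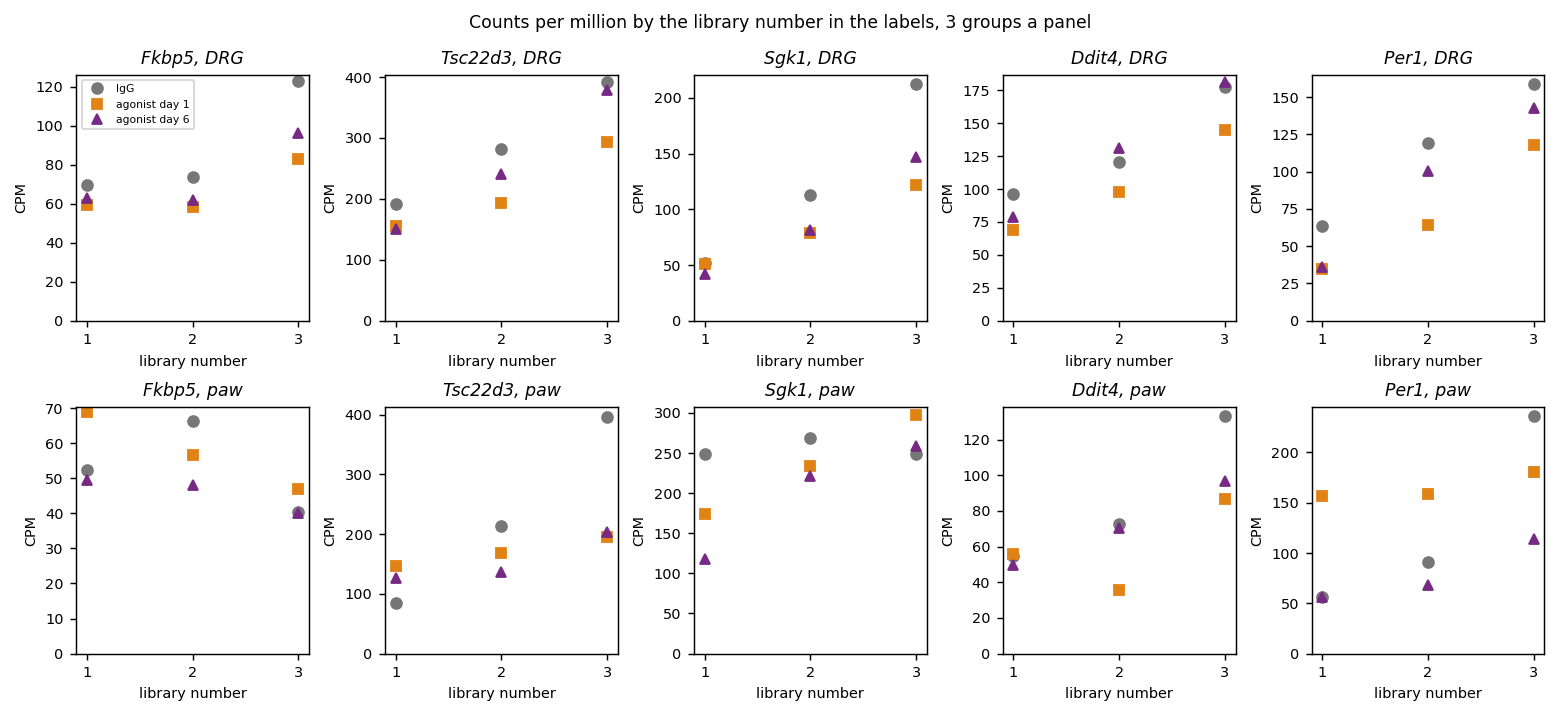
CPM (y axis, from 0) of Fkbp5, Tsc22d3, Sgk1, Ddit4 and Per1 by the library number in the labels (x axis), in DRG (upper panels) and paw (lower panels), with IgG, day 1 and day 6 as separate symbols. In DRG Sgk1 is lowest in library 1 (41.7 to 51.9 CPM) and highest in library 3 (122 to 212 CPM) of each group.

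Same-numbered paw and DRG libraries were set side by side on each gene's deviation from its group mean, over 9 pairs. Tsc22d3 is ranked by number in every group of both tissues, so its value restates that ranking, and the relations are given as a description with no test. Its Pearson r was 0.777 (Spearman rho = 0.917), with the same sign in 8 of 9 pairs, and r was 0.918 without the 2 libraries farthest from the median. Ddit4 (r = 0.797, rho = 0.683), Sgk1 (r = 0.713, rho = 0.683) and Ddit4l (r = 0.551, rho = 0.700) also had the same sign in 8 of 9 pairs, and r without the 2 farthest was 0.877, 0.499 and 0.343. Fkbp5 ran the other way (r = -0.835, rho = -0.633; -0.783 without the 2 farthest), with the same sign in 1 of 9 pairs. For the other 4 genes r lay between -0.104 and 0.397. Over the 14311 genes tested in both tissues the median r was 0.016, 2.96% had an r at least that of Tsc22d3, 1.23% had an r at or below that of Fkbp5, and 3.26% had the same sign in 8 or more of the 9 pairs. The labels do not tie paw to DRG libraries, so whether a number marks an animal is not known.

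Fkbp5 was compared with each other gene of the set over the libraries of a tissue on log2 CPM (exact permutation, 2-sided, adjusted over 24 relations). In DRG (n = 9, all groups) it varied with Tsc22d3 (r = 0.871, exact adjusted p = 0.0288), Sgk1 (0.849, 0.0302), Zbtb16 (0.838, 0.0302) and Ddit4 (0.822, 0.0302). Their Spearman rho were 0.783, 0.783, 0.733 and 0.750, with exact adjusted p from 0.0826 to 0.0888. Without the 2 libraries farthest from the Fkbp5 median, IgG and day-6 library 3, r was 0.731, 0.603, 0.466 and 0.653, so the relation with Zbtb16 in particular rests on those libraries. Deviations from group means gave r of 0.856, 0.853, 0.799 and 0.828. Fkbp5 was highest in library 3 of each DRG group, and Tsc22d3, Sgk1 and Ddit4 were ranked by number there. The relations with these 3 genes therefore in part restate that ranking, and their p-values are not separate support for it. In paw Fkbp5 ran with Zbtb16 (r = 0.790, exact adjusted p = 0.0459; rho = 0.600, adjusted p = 0.190; 0.503 without the 2 farthest) and against Cdkn1a (r = -0.755, exact adjusted p = 0.0466; rho = -0.767, adjusted p = 0.0856; -0.651 without). With Ddit4 in paw it gave r = -0.608 (exact adjusted p = 0.177; rho = -0.650, adjusted p = 0.145), -0.930 without the 2 farthest libraries and -0.638 on deviations from group means, where the DRG relation was positive. In paw its r was -0.351 with Tsc22d3 and -0.192 with Sgk1, with exact adjusted p of 0.543 and 0.839. In cord every day-6 value of Fkbp5 lay below every day-1 value, so a pooled r would in part restate the day, and none is given. The genes nearest to Fkbp5 in DRG, as a description over 9 libraries and 12917 genes, were Glul (r = 0.983), Arrdc2 (0.964) and Mt2 (0.959), and in paw Mtr (0.949), Lpgat1 (0.945) and Cep76 (0.944). By r, the nearest of the set was Tsc22d3 in DRG, at rank 25 of 12917 genes. In paw it was Zbtb16, at rank 107 of 12808.

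In spinal cord the day-6 libraries lay all below the day-1 libraries for 4 of the 9 genes (Fkbp5, Tsc22d3, Sgk1 and Ddit4), against 8.21% of all genes tested, and all above for 2 (Ddit4l and Fbxo32), against 8.17%. At unadjusted p under 0.05, 2 were lower (Fkbp5 and Ddit4, 4.31% of all genes) and 2 were higher (Ddit4l and Fbxo32, 5.39% of all genes). None passed the adjusted threshold with edgeR, where 1464 of 15096 genes had an unadjusted p under 0.05. DESeq2 called 64 genes, among them Ddit4l (0.62, adjusted p = 0.00257) and Fbxo32 (0.62, adjusted p = 0.00243). Without cord day-6 library 2, edgeR called 818 genes, among them Fkbp5 (-0.64, adjusted p = 0.0303), Ddit4l (0.65, adjusted p = 0.0212) and Fbxo32 (0.66, adjusted p = 0.0268). Without each other cord library in turn it called none of the 9. Summed myelin and endothelial markers were higher in every day-6 library. The 12 myelin markers were at 27400 to 29920 CPM at day 1 and 33350 to 39500 CPM at day 6. The 10 endothelial markers were at 284 to 333 and 337 to 415 CPM. With edgeR 1 of the 12 and 4 of the 10 had an unadjusted p under 0.05, all higher. Their median changes were 0.13 and 0.27. Some other sums overlapped between the days. Leukocyte markers summed to 210 to 295 CPM at day 1 and 238 to 735 CPM at day 6. Meningeal markers summed to 365 to 952 and 384 to 1435 CPM, and muscle markers to 152 to 333 and 132 to 1229 CPM. Neuron markers were at 10910 to 12770 and 9652 to 14710 CPM, and astrocyte markers at 7103 to 7513 and 6605 to 7977 CPM. The part of these cell types in the cord values was not tested, other than that a fit with a meningeal score also called none of the 9.

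**Figure D4:**
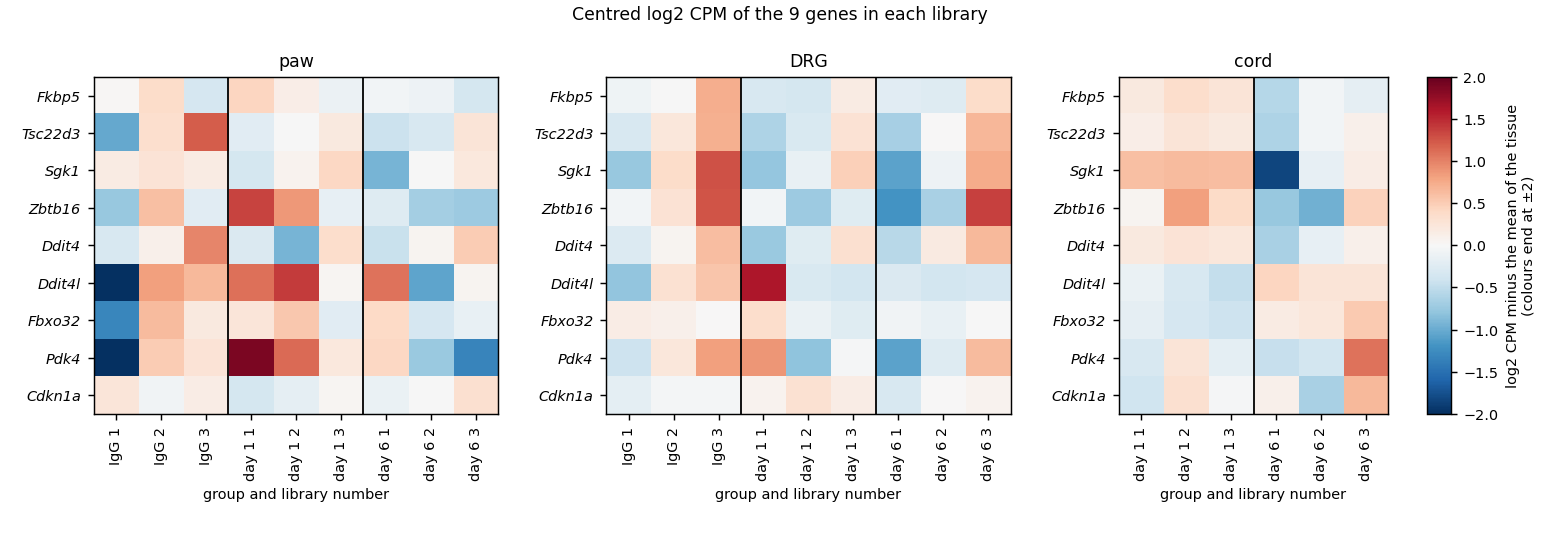
Log2 CPM minus the mean of the tissue (colour, from -2 to 2) for the 9 genes (rows) in each library (columns), by tissue, with black lines between groups. Ddit4l and Pdk4 are darkest blue in paw IgG library 1, and Sgk1 in cord day-6 library 1 (85.4 CPM).

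The change itself was compared between tissues in a fit over all 24 libraries, and none of the 9 genes passed. The shares of all genes called were 0.00593% for paw against DRG at day 1, 0.581% at day 6, 0.818% for cord against paw in the change from day 1 to day 6, and 0.00593% for cord against DRG. The smallest p was that of Zbtb16 at day 1, whose paw change was 1.76 ± 0.81 above its DRG change (unadjusted p = 0.0436, adjusted p = 0.455). For Fkbp5 the change from day 1 to day 6 was 0.68 ± 0.33 lower in cord than in DRG (unadjusted p = 0.0514, adjusted p = 0.882).

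The levels of the set did differ between tissues, as did those of most genes. Between IgG paw and IgG DRG, 5 of the 9 genes differed, where 80.7% of all genes did. Fbxo32 was 4.35-fold higher in paw (2.12 ± 0.31, adjusted p = 4.3e-06), Ddit4l 8.55-fold (3.10 ± 0.83, adjusted p = 0.00245), Zbtb16 3.18-fold and Cdkn1a 1.61-fold, and Fkbp5 was 1.60-fold lower (adjusted p = 0.0114). Between DRG and cord at day 1, 3 of the 9 differed, where 64.2% of all genes did. Sgk1 was 5.45-fold and Zbtb16 3.77-fold lower in DRG, and Cdkn1a was higher (2.07 ± 0.24, adjusted p = 3.44e-07). Between paw and cord at day 1, 6 of the 9 differed, where 83.4% of all genes did: Zbtb16, Ddit4l, Fbxo32, Pdk4 and Cdkn1a were higher in paw and Ddit4 was 2.01-fold lower. The order of the tissues is given at day 1, which all 3 tissues have, on the scale shared by all 24 libraries (mean ± SD CPM, n = 3). Sgk1 was highest in cord (453 ± 5.66), then paw (242 ± 68.3), then DRG (83.2 ± 35.3), with no overlap between neighbours. Zbtb16 (paw 54.0 ± 24.98, cord 19.0 ± 5.14, DRG 5.03 ± 1.16), Ddit4l (76.5 ± 31.3, 17.5 ± 2.03, 7.29 ± 6.22) and Fbxo32 (103 ± 24.7, 28.5 ± 2.16, 19.9 ± 4.53) shared the order paw, cord, DRG, also without overlap. Cdkn1a was similar in paw (308 ± 47.5) and DRG (282 ± 24.7), which overlapped, and lower in cord (67.2 ± 16.2), which overlapped neither. Tsc22d3 was highest in cord (329 ± 13.04), above every DRG (212 ± 70.2) and paw (175 ± 28.7) library, and those 2 tissues overlapped. Not every step without overlap passed the edgeR test. Sgk1 did not between paw and cord (adjusted p = 0.123), nor did Ddit4l (0.17) and Fbxo32 (0.147) between DRG and cord. Tsc22d3 in cord did not against DRG (adjusted p = 0.198) or paw (0.0545). The share of all genes without overlap between tissues was not counted. The neighbours overlapped for Fkbp5 (DRG 66.2 ± 13.8, paw 58.7 ± 10.3, cord 50.5 ± 2.71), Ddit4 (cord 123 ± 3.31, DRG 103 ± 37.5, paw 61.1 ± 27.8) and Pdk4 (paw 75.1 ± 40.0, DRG 30.5 ± 17.5, cord 21.7 ± 4.68). The order of the day-6 means was another one for 3 genes, all with overlapping neighbours: Ddit4 was at 129 CPM in DRG, 89.6 in cord and 75.8 in paw, Tsc22d3 at 254 in DRG, 253 in cord and 163 in paw, and Pdk4 at 27.2 in cord, 25.8 in DRG and 25.3 in paw. For the other 6 genes the order of the day-6 means was that of day 1, but not always without overlap. Sgk1 at day 6 overlapped at each step (cord 80.44 to 323.5 CPM, paw 118.7 to 272.9, DRG 41.1 to 145.6). Zbtb16 at day 6 overlapped between cord and DRG, and Ddit4l between paw and cord. Neighbours did not overlap at day 6 for Fkbp5, Fbxo32 and Cdkn1a. A tissue and its dissection or preparation cannot be told apart.

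The machinery around these genes was measured from lists chosen with them. Nr3c1, the glucocorticoid receptor, averaged 155 ± 24.4, 164 ± 19.5 and 155 ± 8.18 CPM in paw IgG, day 1 and day 6, and 62.6 ± 2.73, 67.4 ± 6.45 and 61.1 ± 4.18 CPM in DRG (SD, n = 3 each). In cord it was at 61.1 ± 3.51 CPM at day 1 and 67.8 ± 3.11 CPM at day 6, and did not pass the test (0.15 ± 0.07, adjusted p = 0.522). Nr3c2, the mineralocorticoid receptor, was at 2.78 CPM in the muscle-poor paw IgG library and 5.83 to 15.9 CPM in the other paw libraries. Hsd11b1, which regenerates active hormone inside cells, averaged 89.4 ± 6.52 CPM in cord at day 1 and 1.95 ± 0.16 CPM in IgG DRG. Both values are scaled within their own tissue and come from groups of unlike treatment, and no test compared them. Hsd11b2, which inactivates the hormone, had 1 to 10 reads in every library. None of 13 tested genes for the receptor, hormone activation and chaperones, and none of 21 other glucocorticoid targets, passed the threshold in any within-tissue comparison. At paw day 6 against IgG 5 of those 21 targets had an unadjusted p under 0.05, all lower, where 3.62% of all genes were lower by that rule, and the median change of the 21 was -0.42. In cord 7 of the 21 had an unadjusted p under 0.05, all lower at day 6, where the share of all genes was 4.31%, with a median of -0.32, among them Hif3a (25.6 ± 1.39 to 11.5 ± 4.57 CPM; -1.16 ± 0.28, adjusted p = 0.463) and Errfi1 (-0.42 ± 0.11, adjusted p = 0.463).

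Lists for the other signals that reach the 9 genes were also without calls. No gene passed in any within-tissue comparison in the lists of FoxO and muscle atrophy, PPAR and fasting, p53, hypoxia and integrated stress response, and mTORC1 genes. Among 18 clock genes 1 passed: Arntl, which encodes the BMAL1 activator, rose in DRG at day 1 from 7.43 ± 0.05 to 15.7 ± 2.58 CPM (1.07 ± 0.12, adjusted p = 0.00512). Among markers, 7 of 10 tested leukocyte genes rose in paw at day 6 against IgG and 7 of 10 against day 1, including Csf1r (1.32 ± 0.16 against day 1, adjusted p = 0.0202), and Pecam1 of the endothelial list rose in DRG at day 1 (0.52 ± 0.07, adjusted p = 0.0173). The leukocyte calls were not kept in every fit with fewer libraries. Against IgG no leukocyte marker was called in a fit of only the 2 groups, or without paw IgG library 2 or 3 or day-6 library 1 or 2. Against day 1 none was called without day-1 library 1 or 3 or day-6 library 1 or 2. Each of these fits called 0 genes of any kind, so the loss was not particular to leukocyte genes. In them Csf1r stayed at 1.24 to 1.40 against IgG and 1.22 to 1.34 against day 1. A fit of only paw day 6 and day 1 still called 6 leukocyte markers. Pecam1 was not called in a fit of only the 2 groups (adjusted p = 0.1), or without DRG IgG library 1, 2 or 3 or day-1 library 2 (adjusted p from 0.0544 to 0.11). Arntl was called in each of those DRG fits (adjusted p from 0.0236 to 0.0371). No marker of the muscle, meningeal, myelin, astrocyte, neuron, adipocyte and keratinocyte lists passed. The hour of sampling is not given in the sources used here, and its part in the values of Arntl and Per1 was not tested.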

How the data were processed

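Poly(A) RNA (about 500 ng total RNA, a stranded TruSeq kit) was sequenced as 50 bp single reads, per the labels' protocols. Raw read counts by gene symbol are what the authors deposited; bcl2fastq, TopHat2, HTSeq and mm9 are named in the submitters' processing notes, and their versions, the annotation and the strand setting are not given in the sources used here. Antisense or overlapping genes could therefore share reads. The 5 summary lines of each table were removed. R 4.3.3 with edgeR 4.0.16 (TMM, filterByExpr, robust quasi-likelihood F test, 2-sided, Benjamini-Hochberg, threshold 0.05) was fitted per tissue, and over all 24 libraries for differences between tissues; the fits were tested on simulated data. Log2 CPM used a prior count of 2. Groups came from titles, sources and tissue labels. The 9 genes, 17 other lists and tests were chosen with earlier results of these data known. Named genes are the 9, up to 4 called or 2 uncalled genes of each list with the smallest p, receptor and hormone enzyme genes, and Per1. The 3 genes nearest Fkbp5 are named in DRG and paw, but not in cord, where Fkbp5 separated by day. Per2, Cry2, Klf15, Mt2, Acta1 and the genes leading the library ranking were named after their values were seen. The relation of same-numbered paw and DRG libraries, planned as an exact permutation test, is given as a description only. Alternatives were other scalings and filters, limma 3.58.1 voom, DESeq2 1.42.0, a replicate block, marker scores and leaving out libraries.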

Additional observations from a re-analysis of the deposited data

How the results depend on the processing

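Of 936 fold changes of the 9 genes under alternatives, 6 moved past the threshold, 2 reversed and 928 did neither; 64 of the 928 changed sign where the reported value lay within 1 standard error of 0. DESeq2 called 1 of the 9 at paw day 6 against day 1 (Zbtb16) and 2 in cord (Ddit4l and Fbxo32), where edgeR called 0. Leaving out 1 library at a time gave 0 to 3 called in cord, 3 only without day-6 library 2, and 2 to 6 for paw against cord levels, with 2 without cord day-1 library 3 and 3 without paw day-1 library 1. With voom, 6 of the 9 differed between DRG and cord. Without 1 library, Tsc22d3 at paw day 6 against control ranged from -0.94 to 0.0606 and Ddit4l at DRG day 6 against day 1 from -1.29 to 0.00336. The cause was not tested.

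Counts over all genes moved more: DESeq2 called 209 genes at paw day 1 (edgeR 1), 509 at paw day 6 (108), 737 at paw day 6 against day 1 (157; voom 705), 131 at DRG day 1 (26), 106 at DRG day 6 against day 1 (16), 2 at DRG day 6 (0) and 64 in cord (0). At DRG day 6, 557 genes had an unadjusted p under 0.05 with edgeR. Leaving out 1 library gave 0 to 155 genes at paw day 6, 0 to 141 at paw day 6 against day 1, 8 to 35 at DRG day 1 and 1 to 24 at DRG day 6 against day 1. A muscle score gave 372 at paw day 6 against day 1, and a fit of only the 2 groups compared gave 0 at paw day 6 and 11 at DRG day 1. For differences between tissues DESeq2 called 87, 186, 513 and 13 genes, where edgeR called 1, 98, 138 and 1, and voom called 1222 for cord against paw and 689 for cord against DRG; without cord day-6 library 2, edgeR called 365 and 63 for these. The counts of ranked and separated genes were the same under 3 other scalings, added after seeing the data.

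The replicate block used the library numbers as pairs. Over all genes, deviations of same-numbered libraries correlated between groups at -0.642 to 0.317 in paw (3 of 9 pairs over 0.1), -0.692 to 0.241 in DRG (2 of 9) and -0.6 to -0.18 in cord (0 of 3), so the numbers were not used as pairs, and whether they mark an animal is not known. With the replicate block 0 of the 9 were called in each within-tissue comparison. At DRG day 1 Fkbp5 was -0.38 ± 0.07 (adjusted p = 0.0743) and Tsc22d3 -0.42 ± 0.08 (adjusted p = 0.0968) in that fit. The block takes out differences between library numbers, and both genes were highest in library 3 of each DRG group. Their small standard errors therefore in part restate that pattern, which was seen in these same values. With 3 libraries a group and standard errors near 1 for muscle-rich genes in paw, small changes of Ddit4l and Pdk4 were not detectable there.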
